A study of Sus scrofa with 22 samples.

Results

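BCAT2, BCKDHB and HIBCH encode 3 enzymes that break down the branched-chain amino acids leucine, isoleucine and valine. They were chosen by name, as every probe set annotated to 1 of these gene symbols alone, and each symbol had 1 probe set. They made up 3 of the 23999 probe sets tested, which carried 6765 different gene symbols in all. The study profiled offspring of German Landrace gilts on an Affymetrix porcine expression array at 4 ages: 94 days post conception (94 dpc, 6 animals) and 1, 28 and 188 days post natum (1 dpn, 6 animals; 28 dpn, 6 animals; 188 dpn, 4 animals). All dams had eaten a gestational adequate protein [AP] diet, so every group shared the diet and no other diet could be compared. Each stage drew on litters of 3 gilts and no label ties an animal to its gilt, so p-values take animals as independent and may be too small. The sample labels name liver and the series title names muscle.

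Skeletal muscle is a main site of branched-chain amino acid breakdown, because the liver has little of the transaminase that starts it. BCAT2, the mitochondrial branched-chain aminotransferase, moves the amino group to alpha-ketoglutarate and leaves a branched-chain ketoacid. The branched-chain ketoacid dehydrogenase, a mitochondrial complex whose decarboxylase is built from the BCKDHA and BCKDHB subunits, then makes the irreversible step, and the kinase BCKDK switches it off by phosphorylation. After it the 3 amino acids follow separate branches. HIBCH belongs to the valine branch, where it releases free beta-hydroxyisobutyrate from coenzyme A.

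The values were linear signal intensities on arrays scaled to a common trimmed mean of 500, and differences are on the log2(signal + 16) scale, which understates the change of dim genes. Background was a signal of 69.7, the 95th percentile of 23 control probe sets without a target. The tissue looked like muscle: 8 of the 30 brightest named genes were skeletal muscle markers and 0 were liver markers. The summed signal of the 12 measured muscle markers ran from 315026 to 411361 at 94 dpc, 406019 to 608187 at 1 dpn, 776750 to 885247 at 28 dpn and 728259 to 885624 at 188 dpn. The sum of the 14 measured liver markers ran from 7934 to 58899, 2437 to 13570, 2690 to 15196 and 2147 to 7993 at the same stages. On no array did a measured muscle marker lie below background. Of the liver markers, FGG and CYP2E1 did on 12 of 22 arrays and APOA1 on 0 of 22. The sum of 6 endothelial markers ran from 11110 to 13877 at 94 dpc, 3351 to 4913 at 1 dpn, 6346 to 9459 at 28 dpn and 2161 to 3368 at 188 dpn, and that of 4 fibroblast markers from 26457 to 33641, 10195 to 16264, 12911 to 25107 and 9604 to 15910. The sum of 4 macrophage markers ran from 2141 to 2723 at 94 dpc and 1010 to 2873 at 1 dpn. It ran from 2307 to 9474 at 28 dpn and 1158 to 4392 at 188 dpn. For 3 adipocyte markers it ran from 2763 to 5922, 7296 to 15320, 4404 to 9370 and 2156 to 4070. For 3 erythroid markers it ran from 953 to 1617, 538 to 1670, 784 to 2502 and 510 to 669. In such bulk tissue fewer cells of a type and less RNA per cell cannot be told apart, and the part of these marker shifts in the results below was not tested. At 1 dpn 4 of 6 arrays had a GAPDH 5′ over 3′ control signal ratio of only 0.140 to 0.332, against 0.731 to 1.26 on the 16 arrays of the other stages and 1.14 to 1.15 on the remaining 2 arrays of 1 dpn.

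All 3 enzymes were called in the F test over the 4 stages (adjusted p = 3.86e-07 for BCAT2, 1.55e-08 for BCKDHB and 3.02e-06 for HIBCH), as were 51.4% of all probe sets. Between 94 dpc and 1 dpn 1 of the 3 was called, HIBCH, which was lower at 1 dpn, as were 21.7% of all probe sets (32.7% were called in either direction). All 3 were higher at 28 dpn than at 1 dpn, against 13.9% of all probe sets (22.3% in either direction). At 188 dpn 1 of the 3, BCKDHB, was higher than at 28 dpn, against 3.65% of all probe sets (11.8% in either direction). All 3 were higher at 188 dpn than at 94 dpc, against 13.6% of all probe sets (36.2% in either direction). All 3 were higher at 28 dpn than at 94 dpc, against 13.1% (30.3% in either direction). All 3 were also higher at 188 dpn than at 1 dpn, against 14.2% (29.9% in either direction). All 3 enzymes were brighter than the median probe set, and these shares were not matched for brightness.

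The direction of all calls together depended on how the arrays were scaled. As deposited, higher calls made up 33.5% of all calls in 1 dpn over 94 dpc, 62.4% in 28 dpn over 1 dpn, 30.8% in 188 dpn over 28 dpn and 37.7% in 188 dpn over 94 dpc. After quantile normalization these shares were 47.4%, 49.8%, 44.2% and 48.6%, and after median centring of each array 57.7%, 39.7%, 60.1% and 56.2%. The median log2 difference of all probe sets was -0.08 as deposited and 0.18 after centring in 1 dpn over 94 dpc, and 0.10 and -0.09 in 28 dpn over 1 dpn. It was -0.12 and 0.08 in 188 dpn over 28 dpn, and -0.07 and 0.20 in 188 dpn over 94 dpc. Each of the 3 enzymes kept its direction in these 4 comparisons under all 3 scalings.

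BCAT2, the transaminase, was dim before and just after birth and bright from 28 dpn on. Its signal ran from 180 to 290 at 94 dpc (median 202), from 41.4 to 363 at 1 dpn (median 131) and from 835 to 1357 at 28 dpn (median 954). The 4 animals at 188 dpn had 512, 1059, 963 and 736. Every animal at 28 and 188 dpn lay above every animal at 94 dpc and 1 dpn, while the 2 earlier stages overlapped, and so did the 2 later ones. How many of all probe sets separated stages in this way was not counted, here or for the genes below.

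Mean signals of BCAT2 were 214 ± 40.3 at 94 dpc, 146 ± 117 at 1 dpn, 1020 ± 195 at 28 dpn and 817 ± 245 at 188 dpn (SD, n = 6, 6, 6 and 4). At 28 dpn BCAT2 was 7.78-fold above 1 dpn (log2 2.96, SE 0.33, adjusted p = 1.87e-06), a difference larger than 99.87% of all probe sets had. It was 4.50-fold above 94 dpc (log2 2.17, adjusted p = 3.52e-05). The difference of 188 dpn from 28 dpn was log2 -0.35 (95% interval -1.11 to 0.42, adjusted p = 0.632), which did not pass the test. At 1 dpn it was log2 -0.79 against 94 dpc (SE 0.33, adjusted p = 0.0724), which did not pass either, and 2 of the 6 animals at 1 dpn lay below background. The order of levels, 1 dpn, 94 dpc, 188 dpn and 28 dpn from low to high, thus had a called difference between neighbours only in its middle pair, 188 dpn over 94 dpc (3.54-fold, adjusted p = 0.000412).

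**Figure D1:**
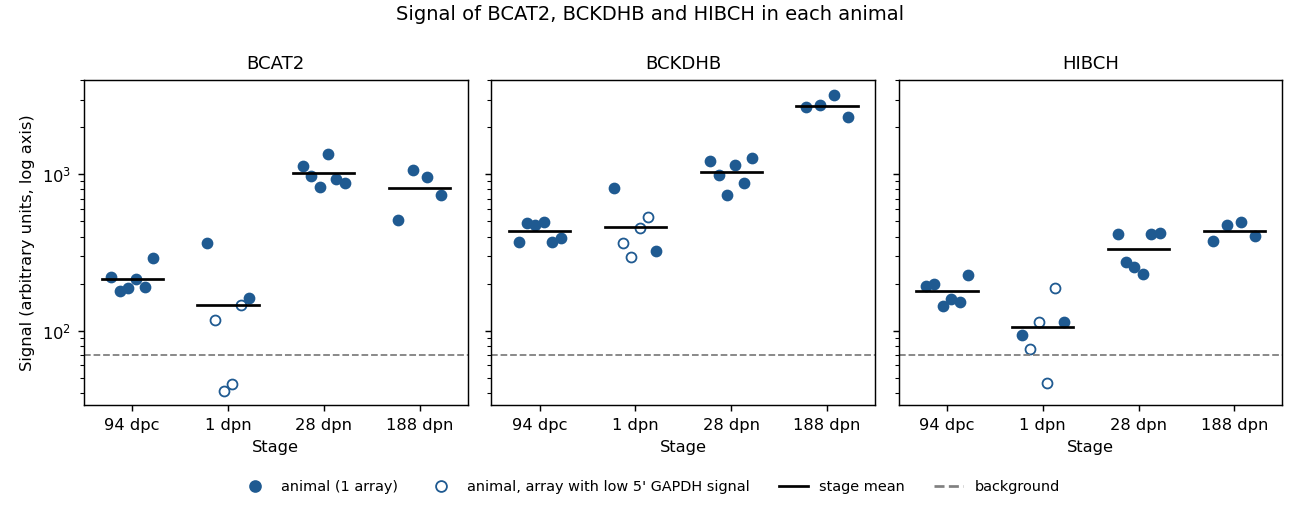
Signal of BCAT2, BCKDHB and HIBCH (arbitrary units, log axis) at the 4 stages, 1 point per animal, with the stage mean as a bar and the background as a dashed line; open points are the 4 arrays of 1 dpn with a low GAPDH 5′ over 3′ ratio. BCAT2 and HIBCH at 28 and 188 dpn lie above all animals of the earlier stages, and BCKDHB at 188 dpn lies above all other animals. The share of all probe sets that separate in this way was not counted.

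BCKDHB, the beta subunit of the dehydrogenase's decarboxylase, went up in a pair of successive steps. Its signal ran from 369 to 497 at 94 dpc (median 435), from 297 to 812 at 1 dpn (median 409) and from 735 to 1262 at 28 dpn (median 1064). The 4 animals at 188 dpn had 2685, 2763, 3237 and 2314. The highest animal at 1 dpn reached into the range of 28 dpn, and all 4 animals at 188 dpn lay above every other animal.

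Mean signals of BCKDHB were 433 ± 61.5 at 94 dpc, 463 ± 192 at 1 dpn, 1035 ± 205 at 28 dpn and 2750 ± 379 at 188 dpn (SD, n = 6, 6, 6 and 4). The 2 earliest stages differed by log2 0.02 (1 dpn over 94 dpc, 95% interval -0.41 to 0.45, adjusted p = 0.952). BCKDHB rose 2.29-fold at 28 dpn over 1 dpn (log2 1.19, SE 0.21, adjusted p = 0.000252). It rose a further 2.66-fold at 188 dpn over 28 dpn (log2 1.41, SE 0.23, adjusted p = 0.000443), a difference larger than 99.22% of all probe sets had. Over the whole span it was 6.17-fold higher at 188 dpn than at 94 dpc (adjusted p = 1.18e-08). In the order of its levels, 94 dpc, 1 dpn, 28 dpn and 188 dpn from low to high, the lowest pair was the one without a called difference.

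HIBCH, the valine-branch hydrolase, was lowest at 1 dpn. Its signal ran from 143 to 226 at 94 dpc (median 177), from 46.5 to 187 at 1 dpn (median 104) and from 229 to 422 at 28 dpn (median 343). The 4 animals at 188 dpn had 376, 471, 498 and 402. Animals at 28 and 188 dpn all lay above those at 94 dpc and 1 dpn, and the 2 later stages overlapped.

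Mean signals of HIBCH were 179 ± 32.4 at 94 dpc, 105 ± 47.6 at 1 dpn, 335 ± 91.5 at 28 dpn and 437 ± 57.1 at 188 dpn (SD, n = 6, 6, 6 and 4). HIBCH fell at 1 dpn against 94 dpc by 0.76 on the log2 scale (SE 0.23, adjusted p = 0.0135), although the 2 stages overlapped and 1 animal at 1 dpn lay below background. This call was lost after quantile normalization (log2 -0.51, adjusted p = 0.104) and after median centring of each array (log2 -0.50, adjusted p = 0.0868). HIBCH rose 3.00-fold at 28 dpn over 1 dpn (log2 1.58, SE 0.23, adjusted p = 3.64e-05) and stood 1.77-fold above 94 dpc (log2 0.82, adjusted p = 0.00916). The difference of 188 dpn from 28 dpn, log2 0.40 (95% interval -0.13 to 0.94, adjusted p = 0.363), did not pass the test, whereas 188 dpn was 2.34-fold above 94 dpc (adjusted p = 0.000606). In the order of levels, 1 dpn, 94 dpc, 28 dpn and 188 dpn from low to high, the top pair was the one without a called difference.

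The 4 arrays of 1 dpn with low 5′ signal moved with the level of BCAT2 at that age. BCAT2 had 117, 41.4, 45.7 and 145 on these 4 arrays, against 363 and 162 on the 2 others, whose 5′ signal was even. With only the even arrays BCAT2 at 1 dpn differed from 94 dpc by log2 0.19 (adjusted p = 0.705), and with only the low arrays by log2 -1.28 (adjusted p = 0.00101). Without the brightest animal of 1 dpn, replicate 1, the difference was log2 -1.09 and was called (adjusted p = 0.00373). The part of RNA quality in the level of BCAT2 at 1 dpn was not tested beyond these values.

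The difference of 28 dpn from 1 dpn was called for all 3 enzymes whichever of these arrays were used. For BCAT2 it was log2 1.98 with the even arrays alone (adjusted p = 0.000246) and 3.45 with the low arrays alone (adjusted p = 2.11e-08). HIBCH had 93.9 and 113 on the even arrays and 76.0, 113, 46.5 and 187 on the low ones, so the 2 kinds of array overlapped, and its difference of 28 dpn from 1 dpn was log2 1.51 and 1.62 with the even and the low arrays. BCKDHB had 812 and 322 on the even arrays and 361, 297, 457 and 529 on the low ones, and its difference was log2 0.97 and 1.31. The fall of HIBCH at 1 dpn against 94 dpc was log2 -0.69 with the even arrays alone, which did not pass the test (adjusted p = 0.0516).

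**Figure D2:**
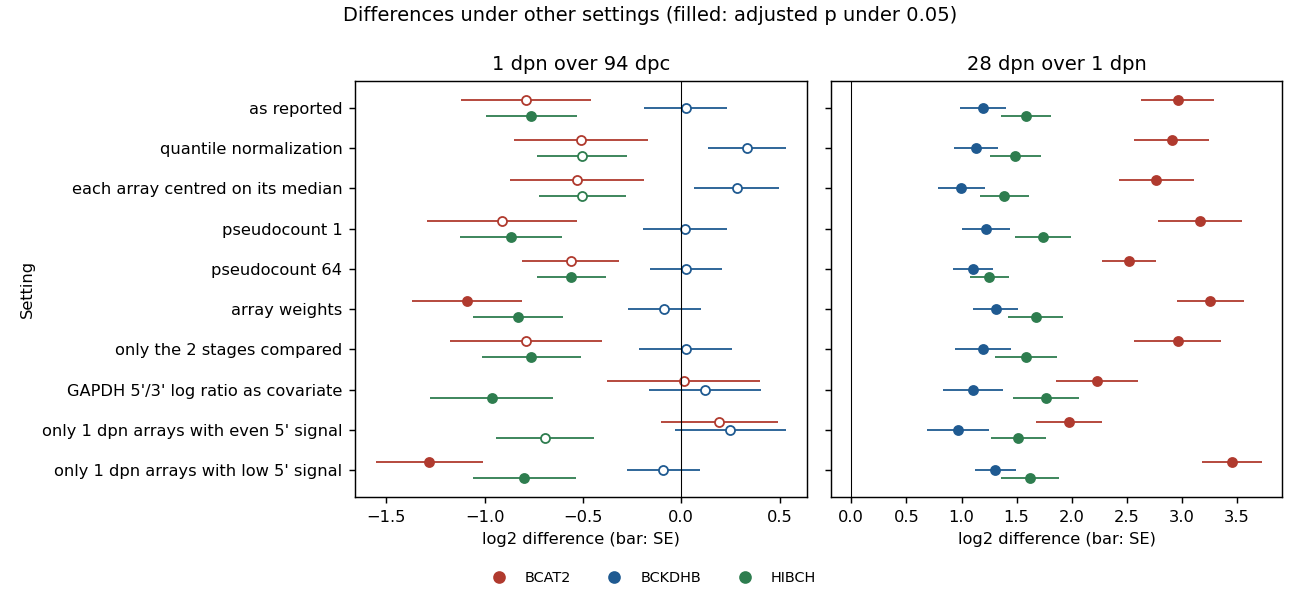
Log2 difference of 1 dpn over 94 dpc (left) and 28 dpn over 1 dpn (right) for BCAT2, BCKDHB and HIBCH under the settings named on the vertical axis, with the SE as a bar and filled points where the adjusted p was under 0.05. On the right every point is filled and above 0; on the left BCAT2 runs between -1.28 with the low arrays and 0.19 with the even arrays of 1 dpn.

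The measured log2 differences of the enzymes in a step were of unequal size. From exact permutation tests over animals, two-sided, of the difference between 2 genes' log2 signals, 6 pairs were compared after their values had been seen, and p-values were adjusted over the 6. The pairs were picked on the same arrays on which they were tested. These p-values do not cover that choice, so they cannot decide whether the enzymes moved by unequal amounts. At 28 dpn over 1 dpn BCAT2 rose by log2 1.77 more than BCKDHB (exact p = 0.002165, the smallest these permutations can give, adjusted p = 0.006494). With only the 2 even arrays of 1 dpn it rose by log2 1.01 more (exact test, adjusted p = 0.04286). There the exact p was the smallest that 2 arrays against 6 can give. It passed after adjustment only because the pairs of the later step were adjusted with it. BCAT2 rose by log2 1.38 more than HIBCH (exact p = 0.01732, adjusted p = 0.01732). With those even arrays it rose by log2 0.46 more, which did not pass (exact test, adjusted p = 0.3929). At 188 dpn over 28 dpn BCKDHB changed by log2 1.76 more than BCAT2 (exact p = 0.004762, the smallest possible, adjusted p = 0.007143) and by log2 1.01 more than HIBCH (exact p = 0.009524, adjusted p = 0.01143).

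Across the 22 arrays, which share the stages, log2 signals of the 3 enzymes correlated with r = 0.77 for BCAT2 and BCKDHB, 0.84 for BCAT2 and HIBCH and 0.78 for BCKDHB and HIBCH. After the stage means were subtracted r was 0.54, 0.29 and 0.11 for the same pairs.

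**Figure D3:**
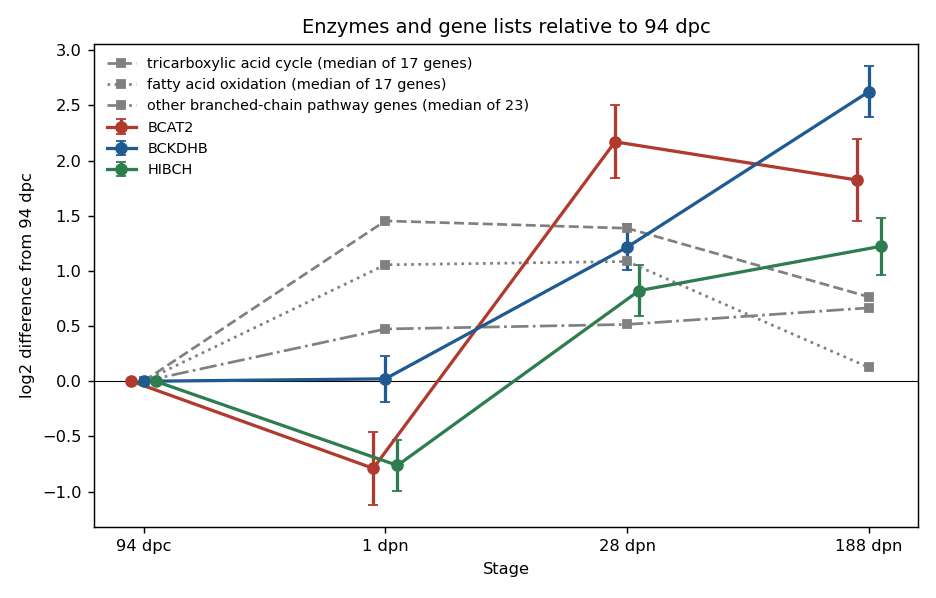
Log2 difference from 94 dpc at each stage for BCAT2, BCKDHB and HIBCH (coloured lines, bars are the SE) and the median over the measured genes of the tricarboxylic acid cycle, of fatty acid oxidation and of the other branched-chain pathway genes (grey lines). The grey medians stand at 1.45, 1.06 and 0.47 at 1 dpn, where BCAT2, BCKDHB and HIBCH stand at -0.79, 0.02 and -0.76.

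BCAT1, the cytosolic counterpart of BCAT2, went the other way. The brighter of its 2 probe sets averaged 343 ± 68.0 at 94 dpc, 359 ± 169 at 1 dpn, 80.6 ± 34.2 at 28 dpn and 106 ± 43.2 at 188 dpn (SD, n = 6, 6, 6 and 4). It was lower at 28 dpn than at 1 dpn by log2 -1.91 (SE 0.33, adjusted p = 0.000209), and the dimmer probe set by log2 -1.40 (adjusted p = 0.00896). At the brighter probe set the lowest animal at 1 dpn overlapped with 28 dpn, where 2 of 6 animals were below background. The dimmer probe set was below background in 2 of 6 animals at 1 dpn, 4 of 6 at 28 dpn and 4 of 4 at 188 dpn. Its difference thus lay close to the floor, where the pseudocount sets its size. With only the even arrays of 1 dpn the differences of both probe sets, log2 -1.32 (adjusted p = 0.0513) and -1.35 (adjusted p = 0.108), did not pass. The log2 differences of BCAT2 and BCAT1 in this step were 4.87 apart (exact permutation test, p = 0.002165, adjusted p = 0.006494). They were 3.30 apart with only the even arrays (exact permutation test, adjusted p = 0.04286). That exact p was again the smallest possible, and it passed only beside the pairs of the later step. This pair, too, was chosen after its values had been seen, which these p-values do not cover.

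BCKDHA, the alpha subunit and partner of BCKDHB, shared its first rise and not its second. BCKDHA averaged 418 ± 58.6 at 94 dpc, 401 ± 178 at 1 dpn, 869 ± 231 at 28 dpn and 660 ± 76.5 at 188 dpn (SD, n = 6, 6, 6 and 4). It rose 2.18-fold at 28 dpn over 1 dpn (log2 1.12, SE 0.21, adjusted p = 0.000537), a call lost with only the even arrays of 1 dpn (log2 0.82, adjusted p = 0.0766). At 188 dpn over 28 dpn its difference was log2 -0.35 (95% interval -0.84 to 0.14, adjusted p = 0.393). BCKDHB exceeded it in that step by log2 1.76 (exact permutation test, p = 0.004762, adjusted p = 0.007143). The choice of this pair after its values had been seen is not covered by these p-values.

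The other parts of the complex had patterns of their own. DBT, the acyltransferase core, was not called between successive stages, with log2 0.60, -0.38 and 0.07 in the 3 steps. DLD, the dehydrogenase subunit that the complex shares with pyruvate dehydrogenase, was 2.30-fold higher at 1 dpn than at 94 dpc (log2 1.20, adjusted p = 0.00143). This call was lost with the GAPDH ratio as covariate (log2 0.26, adjusted p = 0.461) and with only the even arrays of 1 dpn (log2 0.29, adjusted p = 0.371). With these arrays DLD was instead higher at 28 dpn than at 1 dpn (log2 1.29, adjusted p = 0.000573), a step of log2 0.38 with all arrays (adjusted p = 0.351). BCKDK, the inhibiting kinase, averaged 2349 ± 265 at 94 dpc, 5322 ± 950 at 1 dpn, 5820 ± 954 at 28 dpn and 5116 ± 366 at 188 dpn (SD, n = 6, 6, 6 and 4). It rose 2.24-fold at 1 dpn over 94 dpc (log2 1.16, SE 0.16, adjusted p = 6.71e-06) with no overlap between animals, and later steps were log2 0.13 and -0.17, neither called. BCKDK thus rose in the step in which BCKDHB and BCKDHA were not called.

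**Figure D4:**
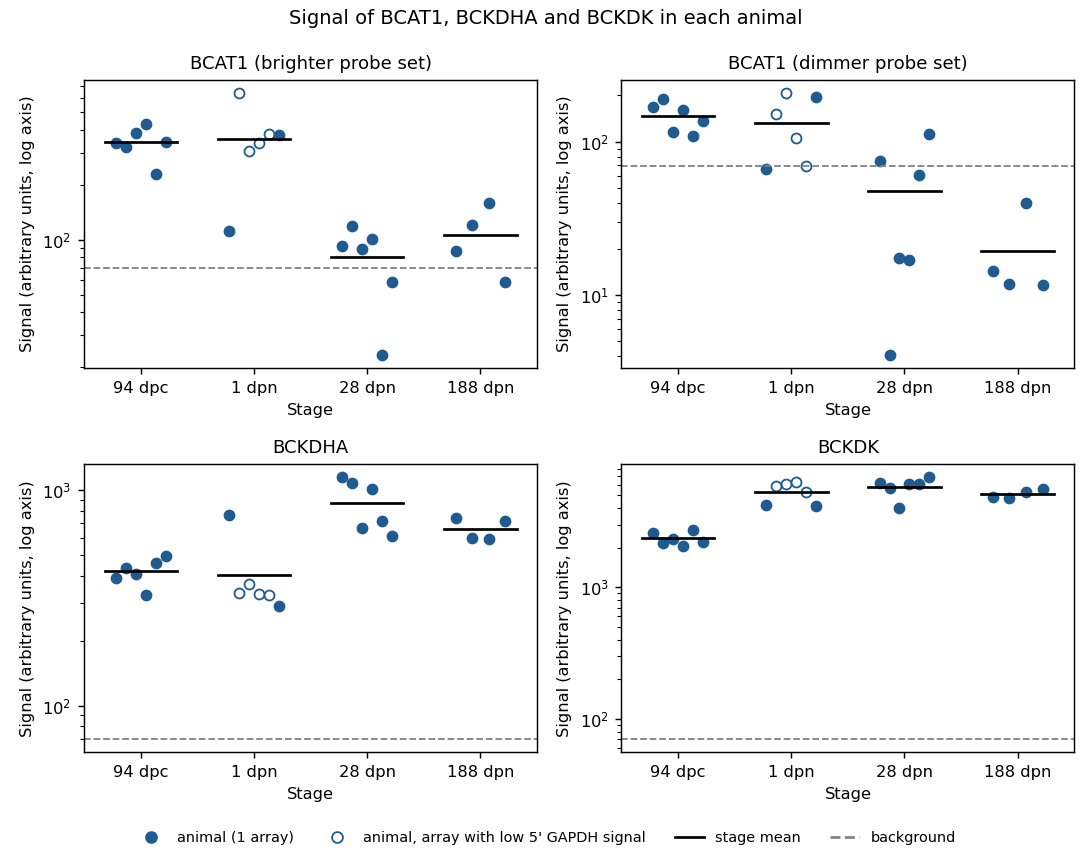
Signal (arbitrary units, log axis) of both BCAT1 probe sets, BCKDHA and BCKDK at the 4 stages, 1 point per animal, with the stage mean as a bar and the background as a dashed line; open points are the 4 arrays of 1 dpn with low 5′ signal. The brighter BCAT1 probe set averages 80.6 at 28 dpn and 106 at 188 dpn, against a background of 69.7, and BCKDK is above its 94 dpc range at every later stage.

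A list of 42 genes of branched-chain uptake, breakdown, nitrogen transfer and regulation held 26 measured genes, each taken at its brightest probe set. In 1 dpn over 94 dpc 9 were higher and 2 lower (median log2 0.39), and in 28 dpn over 1 dpn 7 were higher and 2 lower (median 0.05). In 188 dpn over 28 dpn 4 were higher and 1 lower (median -0.09), and in 188 dpn over 94 dpc 15 were higher and 2 lower (median 0.82). The balance moved with the scaling: after median centring of each array 13 were higher and 1 lower in 1 dpn over 94 dpc (median 0.65), and 5 were higher and 3 lower in 28 dpn over 1 dpn (median -0.15). Centring called 33.3% and 23.1% of all probe sets in these steps, 57.7% and 39.7% of them higher. With only the even arrays of 1 dpn 6 genes of the list were higher and 2 lower in 1 dpn over 94 dpc. There 25.4% of all probe sets were called, 30.7% of them higher. As deposited, over all probe sets 10.9% were higher and 21.7% lower in 1 dpn over 94 dpc, 13.9% and 8.39% in 28 dpn over 1 dpn, 3.65% and 8.2% in 188 dpn over 28 dpn, and 13.6% and 22.5% in 188 dpn over 94 dpc. Of the 26 genes of the list 25 were brighter than the median probe set. The shares over all probe sets include dim ones and were not matched for brightness, so the contrast with the list cannot be read as a pathway effect. Without the 3 enzymes, 9 of the other 23 genes were higher and 1 lower in 1 dpn over 94 dpc, and 4 were higher and 2 lower in 28 dpn over 1 dpn. In 188 dpn over 28 dpn 3 of the 23 were higher and 1 lower, and in 188 dpn over 94 dpc 12 were higher and 2 lower.

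In the leucine branch OXCT1, which activates ketone bodies for use as fuel, fell at 1 dpn against 94 dpc (log2 -1.42, adjusted p = 0.00226) and rose 5.53-fold at 28 dpn over 1 dpn (log2 2.47, adjusted p = 1.79e-05); its dimmer probe set was called only in the second of these steps (log2 1.64, adjusted p = 0.0023). MCCC2, a subunit of the leucine-branch carboxylase, rose 2.22-fold at 188 dpn over 28 dpn (log2 1.15, adjusted p = 0.00163), the same step as the second rise of BCKDHB. IVD, the leucine-branch acyl-CoA dehydrogenase, had 4 probe sets that shared their direction in the first 2 steps and differed in their calls. The 3 dimmer ones were lower at 1 dpn than at 94 dpc (log2 -1.34, -1.33 and -1.02) and higher at 28 dpn than at 1 dpn (log2 2.03, 1.75 and 1.05). The brightest, at log2 -0.32 and 0.67, was not called. With only the even arrays of 1 dpn the brightest had log2 -0.94 (adjusted p = 0.133) and 1.29 (adjusted p = 0.0513). With only the low arrays it had log2 -0.01 and 0.37. At 188 dpn over 28 dpn, where MCCC2 rose, dimmer IVD probe sets were lower (log2 -1.01, adjusted p = 0.00666, and -0.96, adjusted p = 0.00892). The remaining dimmer one (log2 -0.63, adjusted p = 0.179) and the brightest (log2 -0.54, adjusted p = 0.365) were not called in it. AUH, the hydratase of that branch, was not called in a step between successive stages.

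In the isoleucine branch HSD17B10, a dehydrogenase, was higher at 1 dpn than at 94 dpc (log2 0.57, adjusted p = 0.0198), a call lost without replicate 4 of 94 dpc (log2 0.52, adjusted p = 0.0502), after quantile normalization (log2 0.43, adjusted p = 0.0765) and with only the low arrays of 1 dpn (log2 0.36, adjusted p = 0.093). The hydratase ECHS1 was not called in a step. ACADSB, the isoleucine-branch dehydrogenase, was not called at its brightest probe set, but its dimmer one was higher at 28 dpn than at 1 dpn (log2 2.12, adjusted p = 0.000173). That call was lost with only the even arrays of 1 dpn (log2 0.69, adjusted p = 0.0733), where the probe set had 1829 and 768, against 182 to 330 on the low arrays. ACAD8, the dehydrogenase that comes before HIBCH in the valine branch, was 2.39-fold higher at 1 dpn than at 94 dpc (log2 1.26, adjusted p = 0.00335). In that step its dimmer probe set was not called (log2 0.72, adjusted p = 0.172). It had log2 1.98 with the even arrays of 1 dpn and 0.08 with the low ones. HIBCH was lower in that step, a call lost after quantile normalization, after median centring and with only the even arrays. At 28 dpn over 1 dpn the brightest ACAD8 probe set had log2 -0.52 (adjusted p = 0.265) and the dimmer one log2 1.14 (adjusted p = 0.0374), against log2 1.58 for HIBCH. That dimmer probe set had 792 and 381 on the even arrays of 1 dpn and 126 to 151 on the low ones, and with the even arrays alone its difference turned to log2 -0.12 (adjusted p = 0.887).

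MMUT and MMAB act on the propionate that valine and isoleucine yield, MMUT as the mutase and MMAB in making its cobalamin cofactor. MMUT was higher at 28 dpn than at 1 dpn (log2 0.79, adjusted p = 0.0294). This call was lost without replicate 2, 4 or 6 of 1 dpn or replicate 1 or 2 of 28 dpn, with values between log2 0.65 and 0.76, and after quantile normalization (log2 0.66) or median centring (log2 0.60). The fit on only the 2 stages compared (log2 0.79, adjusted p = 0.104) and the low arrays of 1 dpn alone (log2 0.71, adjusted p = 0.0762) lost it too. MMAB was lower at 28 dpn than at 1 dpn (log2 -0.97, adjusted p = 0.0482), a call lost without replicate 2, 3, 5 or 6 of 1 dpn or replicate 1, 2, 4 or 6 of 28 dpn, with values between log2 -1.04 and -0.63, and with only the even arrays of 1 dpn (log2 -0.66). The MMAB call was also lost with a pseudocount of 1 (log2 -1.28), array weights (log2 -1.10), the fit on only the 2 stages (log2 -0.97) and the GAPDH ratio as covariate (log2 -0.72). MMAB lay below background in 3 of 6 animals at 28 dpn and 3 of 4 at 188 dpn. PCCA, a subunit of the propionate carboxylase, was not called in a step.

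Enzymes that pass the amino nitrogen on were higher already at 1 dpn. All 4 measured ones were called higher than at 94 dpc: the aspartate aminotransferases GOT1 (7.84-fold, log2 2.97, adjusted p = 2.68e-07) and GOT2 (3.77-fold, log2 1.92, adjusted p = 1.26e-08), the alanine aminotransferase GPT (log2 1.05, adjusted p = 0.00163) and the glutamine synthetase GLUL (log2 0.90, adjusted p = 0.023). Over all probe sets 10.9% were higher in this step. GOT1 had 3806 and 9570 on the even arrays of 1 dpn and 17918 to 20337 on the low ones, and with the even arrays alone it was 3.67-fold above 94 dpc (log2 1.88, adjusted p = 0.000183). The GPT call was lost with only the even arrays of 1 dpn (log2 0.45, adjusted p = 0.294) and with the GAPDH ratio as covariate (log2 0.57, adjusted p = 0.175). The GLUL call was lost without replicate 1 (log2 0.71, adjusted p = 0.0594) or replicate 2 of 1 dpn (log2 0.80, adjusted p = 0.0559) and after quantile normalization (log2 0.44, adjusted p = 0.306). It was also lost with only the even (log2 1.19, adjusted p = 0.0503) or only the low arrays of 1 dpn (log2 0.75, adjusted p = 0.0663), and the 2 dimmer GLUL probe sets, at log2 0.98 and 0.29 with all arrays, were not called. At 28 dpn over 1 dpn limma called 0 of these 4 at an adjusted p (1 was lower at an unadjusted p under 0.05), whereas BCAT2, which makes the glutamate they use, rose in that step. Of all probe sets 22.3% were called in that step. With only the low arrays of 1 dpn GOT1 was lower in it (log2 -1.09, adjusted p = 0.000114). At 188 dpn over 28 dpn GOT1 was lower (log2 -1.53, adjusted p = 0.00501) and GLUL higher (log2 1.15, adjusted p = 0.0249). That GLUL call was lost without replicate 1 (log2 1.03) or 5 of 28 dpn (log2 1.04) and without replicate 3 (log2 1.01) or 4 of 188 dpn (log2 1.12). It was also lost in the fit on only the 2 stages compared (log2 1.15, adjusted p = 0.0774). The 2 dimmer GLUL probe sets, at log2 0.97 and -1.01, were not called.

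SLC3A2, the heavy chain of the amino acid carrier through which leucine enters cells, was 2.01-fold higher at 1 dpn than at 94 dpc (log2 1.01, adjusted p = 2.18e-05). Among regulators, KLF15, a transcription factor known in mouse muscle to act on BCAT2, was 2.89-fold higher at 188 dpn than at 28 dpn (log2 1.53, adjusted p = 0.0216), the step in which BCAT2 was not called. The KLF15 call was lost without replicate 3 (log2 1.43, adjusted p = 0.0685) or replicate 4 of 188 dpn (log2 1.47, adjusted p = 0.0569). PPARGC1A, a coactivator of mitochondrial genes, was higher at 28 dpn than at 1 dpn (log2 0.86, adjusted p = 0.0226). This call was lost after median centring (log2 0.67, adjusted p = 0.068) and in the fit on only the 2 stages compared (log2 0.86, adjusted p = 0.0569).

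**Figure D5:**
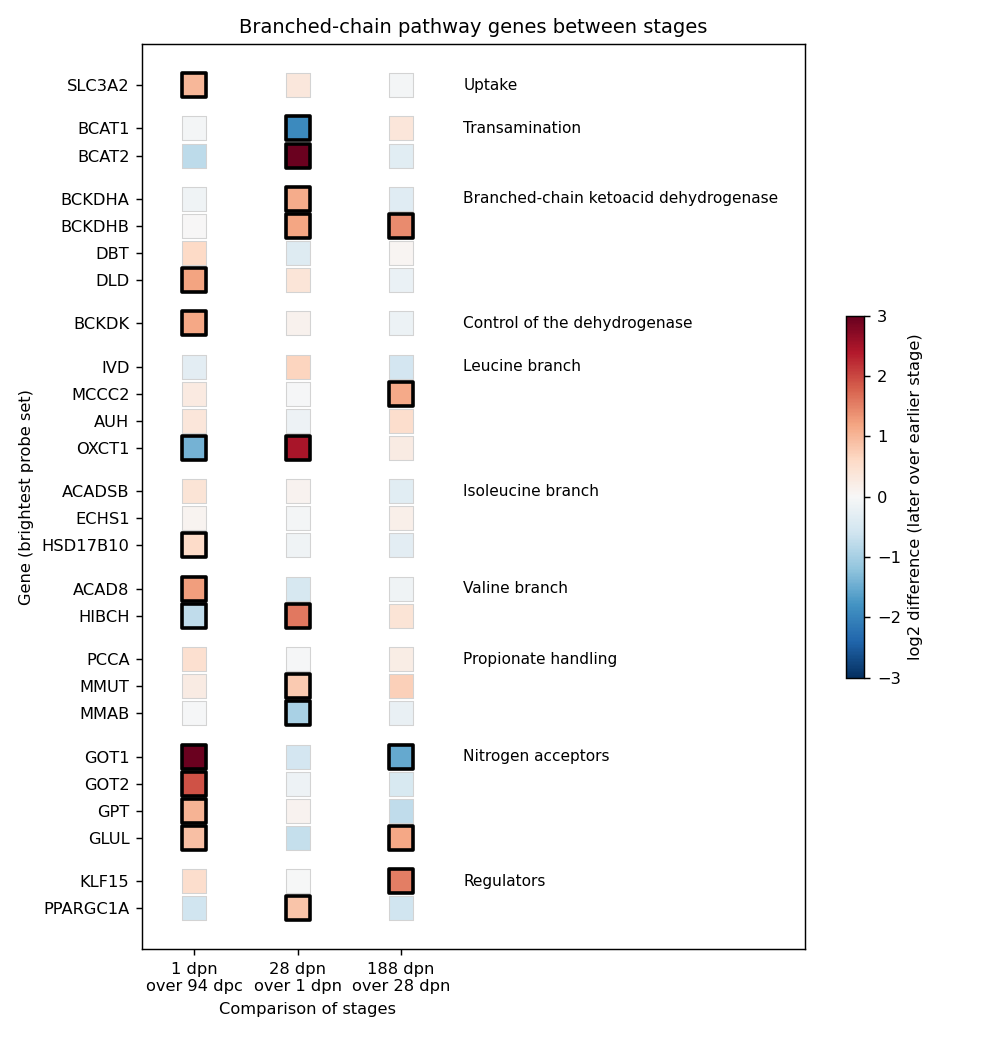
Log2 difference (colour, later over earlier stage) of the 26 measured genes of the branched-chain list in the 3 steps between successive stages, at the brightest probe set of each gene; a black frame marks an adjusted p under 0.05. BCAT2, BCKDHA, BCKDHB and HIBCH are framed in 28 dpn over 1 dpn, while the 4 nitrogen acceptors are framed in 1 dpn over 94 dpc. Over all probe sets 13.9% were higher in 28 dpn over 1 dpn and 10.9% in 1 dpn over 94 dpc.

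Other mitochondrial oxidation genes were mostly called at 1 dpn over 94 dpc. Over all probe sets 10.9% were higher and 21.7% lower in 1 dpn over 94 dpc. These shares were 13.9% and 8.39% in 28 dpn over 1 dpn, and 3.65% and 8.2% in 188 dpn over 28 dpn. Of 17 measured tricarboxylic acid cycle genes 17 were higher at 1 dpn than at 94 dpc (median log2 1.45), 13 of 17 with quantile normalization and 13 of 17 with only the even arrays of 1 dpn. Of 17 fatty acid oxidation genes 14 were higher in that step (median log2 1.06), 11 with only the even arrays. In the same step quantile normalization called 30.1% of all probe sets, 47.4% of them higher. The even arrays called 25.4%, 30.7% of them higher. At 28 dpn over 1 dpn 3 tricarboxylic acid cycle genes were higher and 2 lower (median log2 -0.05), and 2 fatty acid oxidation genes were higher and 3 lower (median log2 0.01). After median centring of each array 2 tricarboxylic acid cycle genes were higher and 6 lower in that step (median log2 -0.24), and with only the low arrays 3 were higher and 6 lower (median log2 -0.14). Centring called 23.1% of all probe sets there, 39.7% of them higher, and the low arrays 27.1%, 58.5% of them higher. At 188 dpn over 28 dpn 7 tricarboxylic acid cycle genes and 8 fatty acid oxidation genes were lower, whereas BCKDHB was higher; limma called 0 of either list higher, and 0 was higher at an unadjusted p under 0.05. Of 6 measured genes of the pyruvate dehydrogenase complex and its kinases and phosphatases, the complex built most like the branched-chain one, 4 were higher at 1 dpn than at 94 dpc. They were the subunits PDHA1, PDHB and DLAT and the kinase PDK4, which had the largest difference (log2 4.76). At 28 dpn over 1 dpn limma called 0 of the 6, with 1 higher at an unadjusted p under 0.05.

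The branched-chain list held only 26 of the 6765 gene symbols, so genes from outside it were likely to come first in any ranking of likeness. The named genes whose log2 signal followed each enzyme most closely over the 22 samples were all outside that list. For BCAT2 they were ZDHHC4 (r = 0.95), PLBD1 (0.95), MAP2K6 (0.94), NRDC (0.94) and PITHD1 (0.94). For BCKDHB they were ARIH2 (r = 0.96), ZNF106 (0.96), VKORC1L1 (0.95), LOC102166602 (0.95) and DCAF8 (0.95). For HIBCH they were MAPK6 (r = 0.94), YME1L1 (0.94), SNTB1 (0.93), DCAF10 (0.93) and OXSR1 (0.93). Of these only NRDC, for BCAT2, was again among the 5 closest genes once the stage means were subtracted (r = 0.85). Within the pathway list the closest gene was BCKDHA for BCAT2 (r = 0.85), MMUT for BCKDHB (r = 0.83) and OXCT1 for HIBCH (r = 0.88), over the same 22 samples, which share the stages.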

How the data were processed

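The authors deposited 1 table of linear signal intensity per probe set for 22 arrays; the submitters' processing notes name GCOS 1.1.1. Per the labels' protocols, the RNA was DNase-treated, column-cleaned and made into biotinylated cRNA. The deposited intensities had the same mean on every array after trimming 2% at each end and were used without further normalization. Of 24123 probe sets 124 controls were left out. Symbols came from the platform annotation, updated through gene identifiers. No genome coordinates or sequences were used.

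Log2(signal + 16) was fitted with limma 3.58.1 in R 4.3.3, with 1 mean per stage, moderated variances, pairwise comparisons and an F test. P-values were adjusted by Benjamini-Hochberg over 23999 probe sets, and an adjusted p under 0.05 was called. The scripts were tested on simulated data. A gene with several probe sets was represented by its brightest. Exact permutation tests of pairs of genes used Python 3.11.15 with NumPy 2.4.6. The precision is limited by the number of arrays, 6, 6, 6 and 4. No animal was an outlier within its stage for the 3 enzymes by Dixon's criterion.

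All probe sets of the 3 enzymes were described, any measured gene of the branched-chain list could be named, first those called between successive stages, and the 5 genes with the highest Pearson r were named for each enzyme. The members and lists were chosen with earlier results of these data known. Alternatives were quantile normalization, median centring, pseudocounts of 1 and 64, a brightness filter, array weights, trended and robust variances, fits on 2 stages, the GAPDH ratio as covariate, the even 1 dpn arrays alone, the mean of a gene's probe sets and leaving out each animal. The low 1 dpn arrays alone and the settings for the gene pairs were added after the data were seen.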

Additional observations from a re-analysis of the deposited data

How the results depend on the processing

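BCAT2, BCKDHB and HIBCH kept their direction and their call in 28 dpn over 1 dpn, 188 dpn over 28 dpn and 188 dpn over 94 dpc under every setting run. The mean of a gene's probe sets did not apply to them, since each has 1. In 1 dpn over 94 dpc BCAT2 became called with only brighter probe sets (log2 -0.79, adjusted p = 0.0418), trended and robust variances (-0.79, adjusted p = 0.0487), array weights (-1.09) and the low 1 dpn arrays (-1.28), and turned to 0.012 with the GAPDH ratio as covariate and 0.19 with the even arrays. Leaving out 1 animal gave -1.09 to -0.55. BCKDHB, near 0 in that comparison, was -0.086 with array weights and -0.092 with the low arrays, and -0.15 to 0.13 with 1 animal left out, below 0 without replicate 1, 5 or 6 of 94 dpc or replicate 1 or 5 of 1 dpn (-0.020, -0.019, -0.0019, -0.15 and -0.032). HIBCH lost its call there with quantile normalization (-0.51), median centring (-0.50) and the even arrays (-0.69), and ran from -0.93 to -0.59 with 1 animal left out, called each time. Of the branched-chain list, lower genes in 1 dpn over 94 dpc were 1 with quantile normalization and 1 with centring, against 2, and higher genes 13 with centring, 7 with the GAPDH covariate and 6 with the even arrays, against 9. In 28 dpn over 1 dpn lower genes were 1 with a pseudocount of 1, 1 with the 2-stage fit, 1 with the GAPDH covariate and 0 with the even arrays (limma, with 3 lower at an unadjusted p under 0.05), against 2, and 3 with centring, 3 with the low arrays and 1 to 3 with 1 animal left out. In 188 dpn over 28 dpn higher genes were 2 to 4 with 1 animal left out, 2 without replicate 3 or 4 of 188 dpn, against 4. Lower genes there were 3 with a pseudocount of 64, brighter probe sets, trended and robust variances, array weights, the even or the low 1 dpn arrays, and 2 with the 2-stage fit, the GAPDH covariate or the mean of a gene's probe sets, against 1. In 188 dpn over 94 dpc lower genes were 1 with centring, 1 with brighter probe sets and 1 to 2 with 1 animal left out, against 2. The share of all probe sets called moved too. In 1 dpn over 94 dpc it was 30.1% with quantile normalization, 33.3% with centring, 25% with the GAPDH covariate and 25.4% with the even arrays, against 32.7%. In 28 dpn over 1 dpn it was 21.4% with a pseudocount of 1, 23.1% with centring and 17.6% with the GAPDH covariate. It was 16.6% there with the even and 27.1% with the low arrays, against 22.3%. The cause of these changes was not tested. At 1 dpn BCAT2 and HIBCH lay close to background, where the pseudocount sets the size of a log2 difference: BCAT2 in 28 dpn over 1 dpn was 3.16 with a pseudocount of 1 and 2.52 with 64. No paired analysis was possible because the replicate numbers are in accession order and the labels pair no animals.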
